A study of Mus musculus with 44 samples.

Results

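CTCF peaks at the promoters of long noncoding RNA (lncRNA) genes were examined in mouse embryonic stem cells (ESCs) with and without the H3K9 methyltransferase SETDB1. A peak was taken as a member when its summit, the base with the most ChIP fragments, lay on an autosome within 1 kb of an annotated transcript start of a lincRNA or antisense gene and not within 1 kb of a protein-coding transcript start (GENCODE vM21, mm10). This rule found 773 members among the 59698 peaks listed for Setdb1 KO ESCs and 636 among the 44241 peaks listed for WT ESCs. The study mapped CTCF in Setdb1 KO ESCs, where 800 nM 4-OHT had been given for 4 days to delete the conditional Setdb1 alleles and cells were harvested on day 6, and in WT ESCs, for which the sources used here name no treatment. Both come from a single clone of the line TT2, a C57BL/6 by CBA hybrid, and both were profiled with a CTCF antibody. With 1 library per condition in the files analysed, no replicate error and no p-value between the conditions can be given. About 27.6 M ChIP tags stood behind the Setdb1 KO list and 27.4 M behind the WT list, as solved from the deposited values.

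CTCF is a zinc finger protein that binds an asymmetric motif and stops cohesin as it extrudes chromatin loops, so that the strand of its motif matters for the direction in which a loop forms. It occupies insulators, loop anchors and many promoters, and at some sites its binding is blocked by DNA methylation, as at imprinted loci. lincRNA genes lie between protein-coding genes and antisense genes are transcribed across the other strand of one. Many are expressed at low levels, some host microRNAs or small nucleolar RNAs, and a few, such as Meg3, sit in imprinted domains where CTCF and DNA methylation mark the parental alleles. SETDB1 deposits H3K9me3, a mark of silent chromatin, at retroelements and other silent sequence.

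To show what lay under the summits, the best match to the CTCF motif is printed for sites that the results below turn on, each read on the strand of the match from the RefSeq sequence of GRCm38.p6 (mm10), with the 20 bases of the match in capitals and 15 bases of flank in lower case. The Meg3 site with no WT peak runs on to the transcript start that follows it. Tbx3os1, 2310008N11Rik, 4930597G03Rik and A530001N23Rik are among the 10 strongest peaks that were listed in Setdb1 KO ESCs only, Gm10610 is the strongest listed in WT ESCs only, and the other sites were shared: the Meg3 and 1700016P04Rik sites with high ratios between the libraries, 4930478P22Rik with the highest enrichment, Gm20659, another of the strongest, and Mir17hg and Hoxd3os1 from the gene lists.
Meg3, KO-only site (chr12:109542154-109542268, plus strand): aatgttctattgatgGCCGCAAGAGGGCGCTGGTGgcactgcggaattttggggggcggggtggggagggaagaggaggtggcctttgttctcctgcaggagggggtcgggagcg
Meg3, shared site (chr12:109543018-109543067, minus strand): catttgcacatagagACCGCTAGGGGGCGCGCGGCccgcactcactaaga
Tbx3os1 (chr5:119574086-119574135, minus strand): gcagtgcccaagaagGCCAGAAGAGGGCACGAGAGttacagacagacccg
2310008N11Rik (chr8:26823914-26823963, minus strand): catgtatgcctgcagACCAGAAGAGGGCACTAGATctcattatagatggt
4930597G03Rik (chr14:51346208-51346257, minus strand): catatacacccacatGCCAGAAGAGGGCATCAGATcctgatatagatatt
A530001N23Rik (chr13:60487029-60487078, plus strand): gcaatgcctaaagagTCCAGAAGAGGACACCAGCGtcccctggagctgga
1700016P04Rik (chr6:13413922-13413971, plus strand): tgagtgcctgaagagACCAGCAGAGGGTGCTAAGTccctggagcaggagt
4930478P22Rik (chr5:35361986-35362035, plus strand): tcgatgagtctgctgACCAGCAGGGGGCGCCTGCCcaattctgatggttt
Gm20659 (chr11:101971539-101971588, minus strand): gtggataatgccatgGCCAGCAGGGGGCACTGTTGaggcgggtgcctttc
Mir17hg (chr14:115042204-115042253, minus strand): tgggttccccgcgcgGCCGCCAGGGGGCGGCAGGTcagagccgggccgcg
Hoxd3os1 (chr2:74715905-74715954, plus strand): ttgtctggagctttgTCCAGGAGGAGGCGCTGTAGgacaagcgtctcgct
Gm10610 (chr7:83550299-83550348, minus strand): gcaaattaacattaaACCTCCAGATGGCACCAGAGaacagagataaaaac

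CTCF peaks at lncRNA promoters were listed in Setdb1 KO ESCs without a WT counterpart less often than CTCF peaks elsewhere. Of the 773 members in Setdb1 KO ESCs, 157 overlapped no WT peak by 1 bp or more (KO-only), which is 20.3% (95% Wilson interval 17.6 to 23.3), against a background of 28.5% for all 58087 autosomal Setdb1 KO peaks. At protein-coding promoters the KO-only share was 26.5% (25.2 to 27.8) of 4456 peaks. In the WT list, 20 of 636 members, or 3.14% (2.04 to 4.81), overlapped no Setdb1 KO peak (WT-only), and the background for all 43284 autosomal WT peaks was 3.26%. Of the KO-only members 33, or 21.0% (15.4 to 28.0), had a WT peak within 1 kb, and of the WT-only members 6 had a Setdb1 KO peak within 1 kb. With such peaks not counted, 16.0% of members were KO-only, against 25.75% of all autosomal peaks. The WT-only shares were then 2.20% of members and 2.65% of all. When both lists were cut to the same length by rank, the order of the conditions turned round: 5.06% of members were KO-only (11.6% of all autosomal peaks) and 10.8% were WT-only (10.8% of all). All intervals cover counting error only, and with single libraries a gain of CTCF binding and a better enriched Setdb1 KO library cannot be told apart.

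KO-only members were weak peaks, and their share depended on the fold enrichment, the authors' ratio of fragments to background with 1 added to each. KO-only members had a median of 17 fragments over the summit and a median fold enrichment of 4.52, against 58 fragments and 13.7 for the shared members. The Setdb1 KO list was therefore split into terciles by fold enrichment, at 6.78 and 14.2. In the lowest tercile, 60.2% (53.7 to 66.3) of 231 members were KO-only, against 69.2% (68.5 to 69.8) of all autosomal peaks. In the middle tercile 17 of 241 members, or 7.05%, were KO-only, against 15.4% (14.9 to 15.9) of all. In the highest tercile 1 member was KO-only, or 0.332% (0.0587 to 1.86), an interval that includes the 0.719% of all autosomal peaks. The lncRNA promoters lay below all autosomal peaks in the lowest and middle terciles, and their intervals there overlapped those of the protein-coding promoters, at 61.1% (58.8 to 63.4) and 9.71% (8.24 to 11.4).

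**Figure D1:**
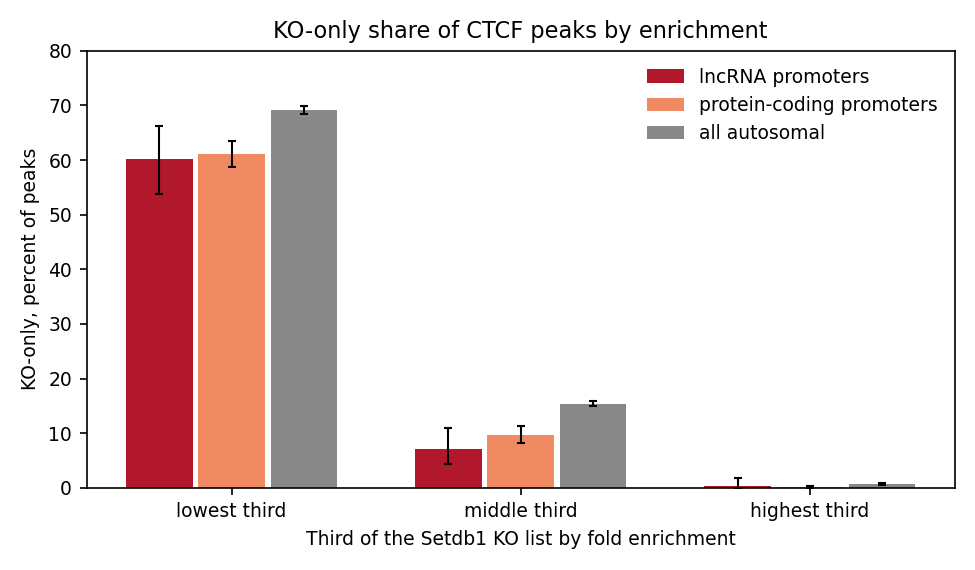
Percent of Setdb1 KO peaks that were KO-only (vertical axis) in each tercile of the list by fold enrichment (horizontal axis), for peaks at lncRNA promoters, at protein-coding promoters and for all autosomal peaks. Error bars are 95% Wilson intervals; at lncRNA promoters 60.2% of peaks were KO-only in the lowest tercile and 7.05% in the middle tercile, below 69.2% and 15.4% of all autosomal peaks.

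The CTCF motif, searched up to 50 bp to either side of the Setdb1 KO summit, was present in 36 of the 157 KO-only members, 22.9% (17.0 to 30.1), and in 361 of the 616 shared members, 58.6% (54.7 to 62.4). The matrix was learned from the strongest shared peaks outside lncRNA promoters, and its threshold was set so that 1% of windows placed 1 kb from the summits pass. Over all autosomal peaks the shares were 33.9% (33.1 to 34.6) of KO-only and 60.9% (60.4 to 61.3) of shared peaks. Motif share went with enrichment: within the lowest tercile it was 20.1% (14.3 to 27.6) of KO-only members and 21.7% (14.5 to 31.2) of shared members, which cannot be told apart at these numbers. All autosomal peaks of that tercile gave 29.2% of KO-only and 29.1% of shared peaks. The first value lies above the interval of the KO-only members and the second within that of the shared members. Of the motifs at lncRNA promoters, 14 of 36 in KO-only members and 193 of 361 in shared members contained a CpG, the dinucleotide that can be methylated, which is 38.9% (24.8 to 55.1) and 53.5% (48.3 to 58.5). Over all autosomal peaks these shares were 34.6% (33.4 to 35.9) and 45.2% (44.6 to 45.8), in the same order. The pair of Meg3 sites printed above, Mir17hg, Hoxd3os1 and 4930478P22Rik are examples with such a CpG.

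Repeats were read from the lower-case (repeat-masked) letters of the genome. The summit lay in masked sequence at 39 of 157 KO-only members, 24.8% (18.7 to 32.1), and at 92 of 616 shared members, 14.9% (12.3 to 18.0). All autosomal peaks had more, with 41.5% (40.8 to 42.3) of KO-only and 24.6% (24.2 to 25.1) of shared peaks. With masked summits left out, 18.4% (15.6 to 21.6) of 642 members were KO-only, against 23.6% of all autosomal peaks. The KO-only sites of Tbx3os1, 2310008N11Rik and 4930597G03Rik printed above lie in masked sequence and share the 13 bases CCAGAAGAGGGCA inside the match. This run, searched in the matches on the strand of the match and chosen after the sites were seen, occurred in 8 of the 36 motifs of KO-only members (22.2%, 11.7 to 38.1), all 8 masked, and in 28 of the 361 motifs of shared members (7.76%), 24 of them masked. Over all autosomal peaks it was in 31.6% (30.4 to 32.9) of KO-only motifs and 13.1% (12.7 to 13.5) of shared ones.

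The members did not gather at the start as closely as peaks at protein-coding promoters did. Summits lay within 200 bp of the start in 218 of 773 members, 28.2% (25.1 to 31.5), against 1872 of 4456 (interval 40.6% to 43.5%) at protein-coding promoters. The fullest bin of 200 bp was the one just upstream of the start, with 116 of the 616 shared and 22 of the 157 KO-only members. The same bin at protein-coding promoters contained 1096 of 3277 shared peaks and 225 of the 1179 KO-only ones. Of the 773 summits 387, 50.1% (46.5 to 53.6), were inside the span of the nearest lncRNA gene. An exon of a lncRNA gene held 179 summits and an intron 242, while 243 lay outside all lncRNA and protein-coding genes. The members were a median of 21.7 kb from the nearest protein-coding start, with 162 within 5 kb and 131 more than 100 kb away. Sequence around the summit had a median GC content of 50.7% in both shared and KO-only members, between 48.3% for all shared autosomal peaks and 57.7% for shared peaks at protein-coding promoters.

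**Figure D2:**
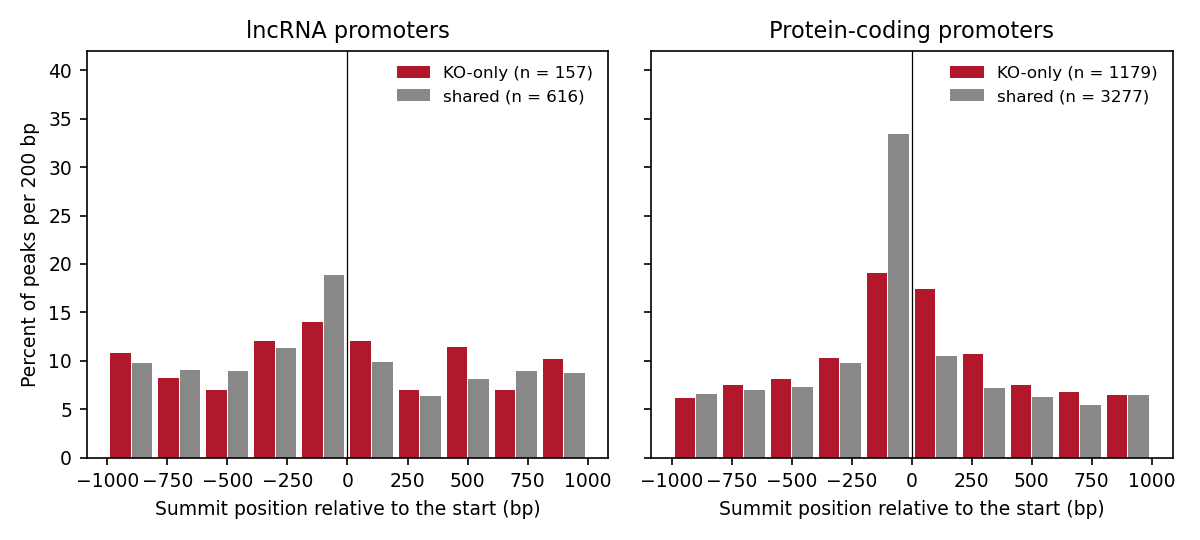
Percent of peaks per 200 bp (vertical axis) by the position of the summit relative to the nearest start along the direction of transcription (horizontal axis, bp, upstream to the left), at lncRNA promoters (left) and protein-coding promoters (right), for KO-only and shared Setdb1 KO peaks. The bin just upstream of the start holds 116 of 616 shared peaks at lncRNA promoters and 1096 of 3277 at protein-coding promoters.

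Over all members, the motif showed little preference for the strand of the lncRNA. Of 397 members with a motif, 212 had the strand printed above, the G-rich one, on the sense strand of the gene, 53.4% (48.5 to 58.3), against 57.5% (55.2 to 59.8) of 1759 peaks at protein-coding promoters. The interval at lncRNA promoters includes an even split and that at protein-coding promoters does not, but the intervals overlap. With lncRNA starts within 500 bp the share was 57.2% (50.5 to 63.6) of 215 motifs, an interval that excludes an even split. Shared members gave 186 of 361, or 51.5% (46.4 to 56.6). KO-only members gave 26 of 36, or 72.2% (56.0 to 84.2), which excludes an even split on few motifs. The printed Tbx3os1, 2310008N11Rik and 4930597G03Rik sites and the KO-only Meg3 site are on the strand of their gene, whereas the KO-only A530001N23Rik site and the shared Meg3 site face the other way.

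At sites listed in both conditions, CTCF signal at lncRNA promoters was higher in Setdb1 KO ESCs by about as much as at CTCF sites in general. The 599 shared sites that pair exactly 1 peak of each list had a median of 57 fragments in Setdb1 KO ESCs and 41 in WT ESCs. The median ratio was 1.35 (quartiles 1.16 and 1.56), close to 1.36 (1.17 and 1.61) for all 40930 autosomal sites and above 1.28 (1.11 and 1.47) for 3205 sites at protein-coding promoters. Of the 599 sites, 537 held more fragments in Setdb1 KO ESCs, 9 the same number and 53 fewer, or 8.85% (6.83 to 11.4) fewer, against a background of 7.32% of all autosomal sites. A ratio of 2 or more was found at 36 sites, 6.01% (4.37 to 8.21), against 9.44% of all autosomal sites. The exact 95% interval of the ratio lay above 1 at 158 sites, 26.4% (23.0 to 30.0), against 31.8% of all autosomal sites, and below 1 at 0 sites, against 0.0464% of all. Set against the autosomal median of 1.36, the interval lay above it at 16 sites, 2.67% (1.65 to 4.29), against 5.57% of all, and below it at 21 sites, 3.51% (2.30 to 5.30), against 2.3% of all. Masked summits had a median ratio of 1.45 at 92 sites, against 1.34 at the other 507. The summits of the paired peaks were a median of 18 bp apart.

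**Figure D3:**
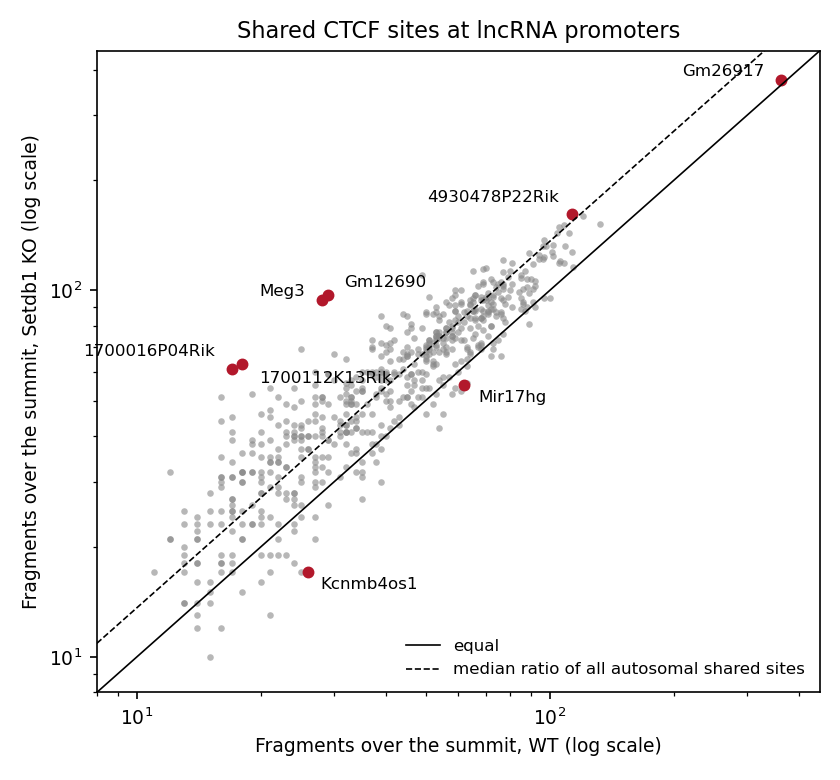
Fragments over the summit in Setdb1 KO ESCs (vertical axis, log scale) against WT ESCs (horizontal axis, log scale) at 599 shared CTCF sites at lncRNA promoters, each point 1 site. The solid line marks equal numbers and the dashed line the median ratio of all autosomal shared sites, 1.36; Meg3, Gm12690, 1700016P04Rik and 1700112K13Rik lie well above both.

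The highest ratios were found at 9 lincRNA genes and 1 antisense gene. Of all 599 shared sites, 402 were at lincRNA starts, and the median ratios of lincRNA and antisense sites were close (1.35 and 1.34). At 1700016P04Rik, a lincRNA gene 189 kb from the start of Vwde, 61 fragments in Setdb1 KO ESCs stood against 17 in WT ESCs, a ratio of 3.59 (exact Clopper-Pearson interval 2.07 to 6.55). At 1700112K13Rik the numbers were 63 and 18, a ratio of 3.50 (2.05 to 6.28). Both sites carried a motif. Meg3 came next, with 94 fragments in Setdb1 KO ESCs and 28 in WT ESCs (ratio 3.36, 2.18 to 5.32), and then Gm12690, 87.7 kb from the start of the transcription factor gene Foxd3, with 97 and 29 (3.34, 2.19 to 5.25). Gm49201 had 51 and 16 fragments (3.19, 1.79 to 5.99). Its summit lay in masked sequence, as did those of 4930550C17Rik, AC165259.1 and 1700113B09Rik, named next. Masked summits made up 92 of the 599 shared sites. The next ones were 4930550C17Rik, 7.4 kb from the neurogenic factor gene Neurog1, Gm45631, antisense to the chloride transporter gene Clcn4, AC165259.1, Gm30124 and 1700113B09Rik, with ratios between 2.65 and 2.76. Each of these 10 intervals lay above 1, as at 158 of all 599 shared sites. The sites were picked for their high ratios, which the intervals do not take into account. A motif was found around the Setdb1 KO summit at 7 of the 10 sites and at 350 of the 599. Gm30124, counted without one, had a match above the threshold around its WT summit.

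The 5 lowest ratios had intervals that included 1, and 4 of these intervals lay wholly below the autosomal median of 1.36. These sites were picked for their low ratios, which the intervals do not take into account. Kcnmb4os1, antisense to a potassium channel subunit gene, had 17 fragments in Setdb1 KO ESCs and 26 in WT ESCs (ratio 0.654, 0.333 to 1.25). 9630002D21Rik had 17 and 25, and Gm45774, antisense to the metallothionein gene Mt2, had 18 and 24 (interval 0.383 to 1.44), the only one of the 5 that also held 1.36. 4930588K23Rik, 1.2 kb from the start of the T-box gene Tbx1, and AC091309.2 had ratios of 0.769 and 0.771, with intervals of 0.462 to 1.27 and 0.449 to 1.31. Another shared site of AC091309.2 went the other way, with 57 fragments in Setdb1 KO ESCs and 40 in WT ESCs (ratio 1.425, 0.935 to 2.19).

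The 10 sites with the most fragments had ratios of 1.03 to 1.42. The highest number of fragments, 374 in Setdb1 KO ESCs and 362 in WT ESCs, was at Gm26917, but its background was 162 and 173 fragments, so that the fold enrichment was only 2.30 and 2.09. Gm26917 also held a WT-only peak with 226 fragments over a background of 148. The strongest enrichment was at 4930478P22Rik, a lincRNA gene on chromosome 5 whose exon holds the summit at 35362027, with 161 fragments in Setdb1 KO ESCs and 113 in WT ESCs (ratio 1.42, 1.11 to 1.83) and fold enrichments of 50.8 and 21.0. Gm20659, with 151 and 108 fragments, lies over an exon of the phosphatase gene Dusp3 on the other strand. Gm31812, a lincRNA gene, had 152 fragments in Setdb1 KO ESCs and 132 in WT ESCs. Gm43391, Gm16172, 4930579G18Rik, Gm16538, Gm42047 and 1700041G16Rik completed the 10 highest, with 133 to 159 fragments in Setdb1 KO ESCs, 97 to 120 in WT ESCs and ratios from 1.29 to 1.42. Of the 10 intervals, 4 included 1 (Gm26917, Gm31812, 4930579G18Rik and 1700041G16Rik). A motif was found around the Setdb1 KO summit at 5 of the 10. Gm16172, counted without one, had a match above the threshold around its WT summit.

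KO-only members at the top of the list were led by A530001N23Rik. Its peak, on chromosome 13 from 60486913 to 60487254 in an exon of this lincRNA, had 55 fragments and a fold enrichment of 17.6, the only KO-only member in the highest tercile. Gm29570 followed on chromosome 1, from 13376755 to 13377255 in an intron, with 39 fragments and a fold enrichment of 12.5, 2.9 kb from the start of the nuclear receptor coactivator gene Ncoa2. No motif was found there. Next were the Meg3 peak on chromosome 12, with 33 fragments and a fold enrichment of 10.7, and Tbx3os1, antisense to the developmental T-box gene Tbx3, with 48 fragments and 10.1. The Tbx3os1 summit is at 119574130 on chromosome 5 in an intron, 816 bp inside the transcript. Both of these carried a motif. Gm49092, 4930404O17Rik, 4930597G03Rik, Gm20005, I830134H01Rik and 2310008N11Rik had 28 to 43 fragments and fold enrichments of 8.62 to 9.49. The 4930404O17Rik summit lay 8 bp upstream of its start, without a motif, and that of I830134H01Rik lay in an exon 1.4 kb from the start of the cytokinesis gene Cep55, with one. Of the 10, 6 had a motif and 5 a masked summit. A peak missing from the WT list is below the calling threshold there, which does not show that CTCF was absent.

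WT-only members were few and weak. Gm10610 on chromosome 7, from 83550185 to 83550386, led with 15 fragments and a fold enrichment of 5.17, and carried a motif. Gm45069 had 22 fragments, Gm4022, which overlaps the granzyme genes Gzmf and Gzmn on the other strand, 17, and Gm45352, antisense to the sorting receptor gene Sorcs1, 14. The last of these carried a motif, the WT-only peaks of Gm45069 and Gm4022 did not. Gm45069 also had a shared site with a motif, with fold enrichments of 11.5 in Setdb1 KO ESCs and 12.3 in WT ESCs. 9030404E10Rik, 25.9 kb from the start of the Notch target gene Hes1, had 14 fragments. Apart from the peak at Gm26917, all 20 WT-only members had 12 to 22 fragments. A motif was found in 6 of the 20, 30.0% (14.5 to 51.9), against 12.2% of all autosomal WT-only peaks.

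Among imprinted lncRNAs, 3 of 9 annotated genes had a member in Setdb1 KO ESCs and 1 in WT ESCs, where 9.04% and 7.62% of all lncRNA genes did. All 3 had a KO-only peak: 2 of 3 members at Meg3 were KO-only, 1 of 1 at Nespas and 1 of 1 at Zim3. Of all members 20.3% were KO-only, which is a share of peaks and not of genes. Meg3, the maternally expressed lncRNA of the Dlk1-Dio3 domain, had 3 members close together. The central one was the shared site, with its Setdb1 KO summit at 109543031 and 94 fragments against 28 in WT ESCs. On either side lay the KO-only peaks, at 109542169 with 33 fragments and at 109543673 with 12. The first of these is 99 bp upstream of the Meg3 start at 109542268 and 1.17 kb downstream of the first of the 11 annotated Meg3 starts. It lies in an exon, with its motif on the sense strand of the gene. The second had no motif. Further into the gene, 12.8 and 25.8 kb from the first start, 2 more KO-only peaks had 13 and 20 fragments, so that Setdb1 KO ESCs had 5 peaks along Meg3 and WT ESCs 1. Nespas, antisense to the imprinted gene Gnas, had a KO-only peak on chromosome 2 with 21 fragments and no motif, in an exon of Gnas 875 bp upstream of the Nespas start. Zim3, in the Peg3 domain, had one with 15 fragments in masked sequence. The list was drawn up with earlier results of these data in view, and Meg3 was already known from them.

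**Figure D4:**
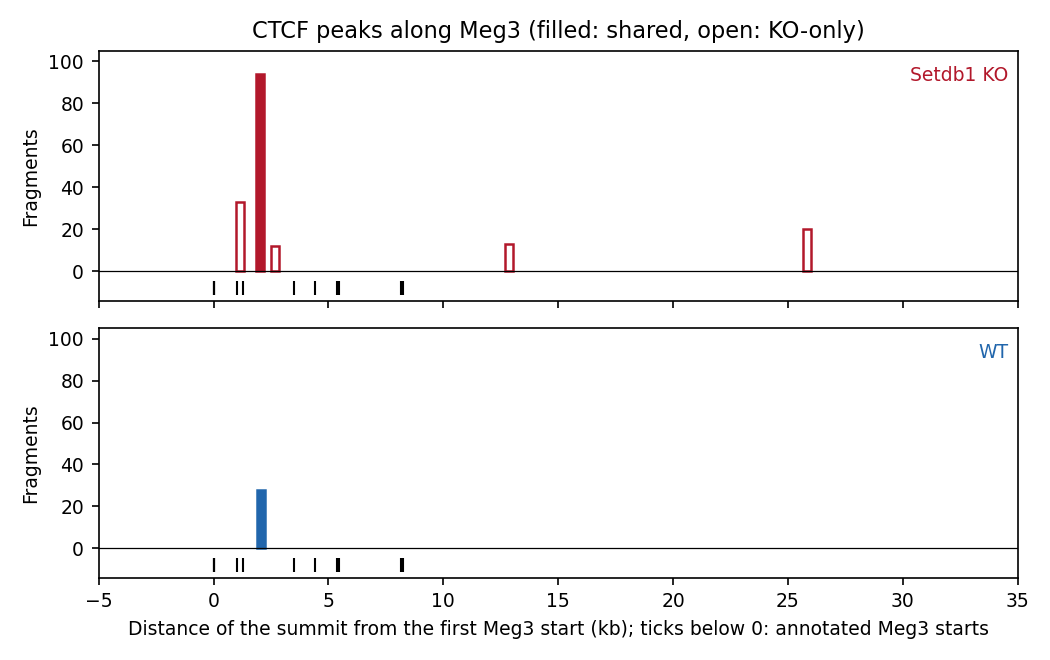
Fragment number at every CTCF peak summit (vertical axis) by distance of the summit from the first annotated Meg3 start (horizontal axis, kb), in Setdb1 KO ESCs (top) and WT ESCs (bottom); ticks below 0 mark the annotated starts. Filled bars are shared peaks and open bars KO-only peaks: 5 peaks stand in Setdb1 KO ESCs, the highest with 94 fragments, against 1 with 28 fragments in WT ESCs.

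Genes that host small RNAs, which release microRNAs or small nucleolar RNAs from their transcripts, had members in 5 of 15 cases in Setdb1 KO ESCs and 4 in WT ESCs, beside the same 9.04% and 7.62% of all lncRNA genes, which also stand beside the lists that follow. Mir17hg, the host of a microRNA cluster that promotes proliferation, was the only listed gene with fewer fragments in Setdb1 KO ESCs, 55 against 62 in WT ESCs (ratio 0.887, 0.606 to 1.30). Snhg12 had 51 against 28 at its shared site (1.82, 1.13 to 3.00) and a further KO-only peak with 14. Mir670hg had 57 against 35 (1.63, 1.05 to 2.56) and a KO-only peak with 11. Mir9-3hg, the host of a neural microRNA, had 40 in Setdb1 KO ESCs and 25 in WT ESCs, with an interval of 0.947 to 2.75, and Snhg20 a KO-only peak with 17.

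Of 29 ESC lncRNAs, 4 had a member in Setdb1 KO ESCs and 3 in WT ESCs. At Platr1, Platr2 and Platr27, named as pluripotency-associated transcripts, the fragments were 53, 69 and 29 in Setdb1 KO ESCs against 41, 63 and 27 in WT ESCs, and all 3 intervals of the ratio included 1. Lncenc1, which is expressed in naive ESCs, had a KO-only peak with 17 fragments in an intron and without a motif. Among 24 lncRNAs next to developmental regulators, 3 had a member in Setdb1 KO ESCs and 2 in WT ESCs. Tbx3os2 had 69 against 51 fragments at a shared site (1.35, 0.929 to 1.98), beside the KO-only peak of Tbx3os1, and Dlx6os1, next to homeobox genes of the forebrain, had 14 against 13. In the Hox clusters, 1 of 9 listed lncRNA genes had a member, Hoxd3os1, with 63 fragments in Setdb1 KO ESCs and 47 in WT ESCs (1.34, 0.904 to 2.00). The list was not complete: Gm53, an unlisted lincRNA gene, had a shared site 9.7 kb from the start of Hoxb9. It held 88 fragments in Setdb1 KO ESCs and 71 in WT ESCs (1.24, 0.896 to 1.72). Of 7 nuclear and stress lncRNAs, Meg3 and Neat1 had members in Setdb1 KO ESCs. Neat1, the scaffold of nuclear paraspeckles, had KO-only peaks with 18 fragments, inside its transcribed span, and with 15, where the start of Frmd8os is nearer.

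**Figure D5:**
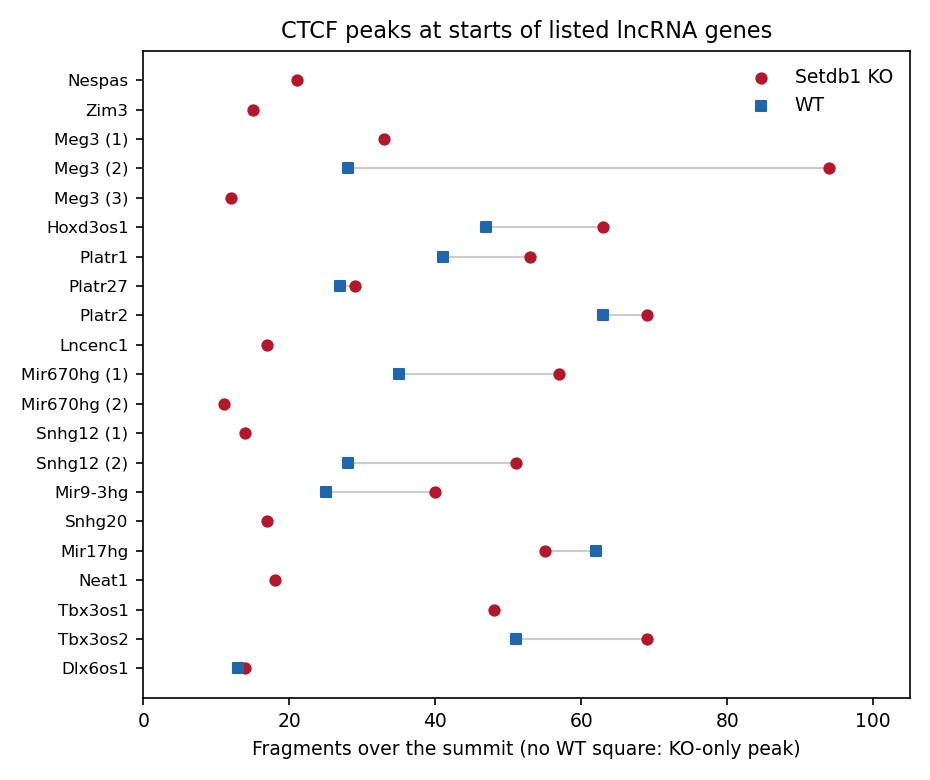
Fragments over the summit (horizontal axis) in Setdb1 KO ESCs (circles) and WT ESCs (squares) for each member nearest to a start of a listed lncRNA gene (vertical axis, numbered where a gene has several); a circle without a square is a KO-only peak. Meg3 stands out with 94 against 28 fragments, and Mir17hg is the only gene with fewer in Setdb1 KO ESCs, 55 against 62.

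Counted by gene, 734 of 8122 autosomal lncRNA genes had a member at a start in Setdb1 KO ESCs, 9.04% (8.43 to 9.68), and 619, or 7.62% (7.06 to 8.22), in WT ESCs. Both lists named 597 of these genes, which is 79.0% of the 756 named by either. At protein-coding starts the shares were higher, at 20.3% (19.7 to 20.8) of 20722 genes in Setdb1 KO ESCs and 16.0% (15.5 to 16.5) in WT ESCs, where a gene has 2.51 starts on average against 1.38 for a lncRNA gene. The lncRNA shares also leave out starts beside a protein-coding start. With 3 members each, the genes with the most sites were Meg3, Gm43729, antisense to the helicase gene Zgrf1, and Gm47200, antisense to the Hedgehog effector gene Gli1. The Gm43729 sites, all masked and with a motif on the strand opposite to the gene, had 16, 31 and 39 fragments in Setdb1 KO ESCs, the first of them KO-only. The Gm47200 sites, all shared, had 13, 60 and 62.

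By type, 501 of 5209 lincRNA genes had a member in Setdb1 KO ESCs, 9.62% (8.85 to 10.4), and 233 of 2913 antisense genes (interval 7.07% to 9.04%). KO-only shares of the peaks were close, at 20.3% (17.0 to 23.9) of 518 members at lincRNA starts and 20.4% (15.9 to 25.8) of 255 at antisense starts, and the median ratios were 1.35 at 402 and 1.34 at 197 shared sites. Across the autosomes the KO-only share ranged from 6.25% on chromosome 16, with 1 of 16 members, to 28.6% on chromosome 19, with 8 of 28, where all peaks of these chromosomes gave 32.0% and 26.8%. On chromosome 5 from 110 Mb on, 8 of 30 members were KO-only, 26.7% (14.2 to 44.4), an interval that includes the 28.5% of all autosomal peaks. The median ratio there was 1.38 at 21 sites, against 1.36 for all autosomal shared sites. At the edge of the 1 kb window, 9530026P05Rik at 999 bp (fold enrichment 6.16), Gm29459 at 998 bp (5.02) and Neat1 at 992 bp (4.87) were just inside, and AC147229.1 (10.3) and Gm14244 (8.47) at 1002 bp and 4930589L23Rik (8.65) at 1003 bp just outside.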

How the data were processed

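CTCF ChIP-seq peak lists of Setdb1 KO and WT ESCs were analysed, 1 library per condition; second libraries and other cell lines were not analysed here. Per the labels and the methods, the authors used Bowtie 1.2 for alignment to mm10 and Picard against duplicate reads; MACS2 2.1.0 gave the peaks (q threshold of 0.05, genome size 2430000000). The deposited lists hold the fold enrichment, a ratio of pileup to background with 1 added to each, the authors' p and q as −log10 values, a score, and the summit offset.

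The fragment number and the background were solved from fold enrichment and the Poisson p (tolerance of 0.001; all but 7 Setdb1 KO peaks). The lowest background gave 27.6 M tags and 28.5 M input tags for Setdb1 KO and 27.4 M and 30.9 M for WT, with fragments of 193 and 186 bp. Starts came from GENCODE vM21, sequence and repeat masking from the RefSeq GRCm38.p6 genome. A start counted as protein-coding by its transcript type. The motif matrix, 20 bp wide, was learned de novo from 1000 shared peaks, with its threshold at the 99th percentile of windows shifted left by 1 kb. GC content was taken within 100 bp of the summit. A summit counted as repeat-masked when most of the 101 bases around it were lower case.

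Shares have Wilson 95% intervals, ratios exact Clopper-Pearson intervals, and no p-value was computed. On simulated data the fragment number was recovered for 100% of 3000 peaks and the motif in 95.7% of 1500 windows. Members, lists and alternatives were chosen with earlier results of these data known. Genes named are the 10 KO-only and 5 WT-only members with the highest fold enrichment, the 10 shared members with the most Setdb1 KO fragments, the 10 highest and 5 lowest ratios among sites with at least 40 fragments in both libraries together, genes with at least 3 members, and members of the gene lists; the printed sites were picked from these, and others were named beside a result. Computation used scipy 1.17.1, pandas 2.3.3, numpy 2.4.6, pysam 0.24.0 and matplotlib 3.10.9 under Python 3.11.15.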

Additional observations from a re-analysis of the deposited data

How the results depend on the processing

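Of 67 values under alternative settings, 51 stayed within the 95% interval of the reported value and 16 moved out of it; the KO-only share at lncRNA promoters was below that of all autosomal peaks under all 17 of its settings, which share most peaks. The KO-only share, 20.3%, was 26.8% with a reciprocal overlap of at least 50%, 16.0% with no WT peak within 1 kb, 17.2% when both lists were limited to −log10 q of 5 or more, 5.06% with lists of equal length and 23.6% with starts within 2 kb. The WT-only share, 3.14%, was 11.3% with the reciprocal overlap, 6.45% with summits within 100 bp and 10.8% with lists of equal length, where it exceeds the KO-only share. With Setdb1 KO fragments divided by the median ratio the shares were 18.3% and 3.46%. The median ratio was 1.31 with starts within 500 bp. The motif share of KO-only and shared members was 47.8% and 80.2% at the 95th percentile. That of shared members was 35.9% with the motif searched within 100 bp of the summit, where the threshold was also set anew from windows of that width. The share of lncRNA genes with a member was 5.41% within 500 bp, 15.3% within 2 kb, 8.42% with the stricter q and 7.999% for antisense genes. Leaving out masked summits was chosen after seeing the data and moved none of 3 values. The causes were not tested. No paired analysis was possible because each condition has 1 library here. Depth limits single sites: KO-only members had a median of 17 fragments, and the interval of the ratio excluded 1 at 158 of 599 shared sites (26.4%, against 31.8% of all autosomal sites).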

Other observations

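On the X chromosome, which the rule leaves out, 7 peaks in Setdb1 KO ESCs and 6 in WT ESCs lay at lncRNA starts by the same distances. Ftx, a lncRNA of the X inactivation centre, had shared peaks with 13 and 17 fragments in Setdb1 KO ESCs against 16 and 17 in WT ESCs. Gm15008 had 54 fragments in Setdb1 KO ESCs and 23 in WT ESCs, with a motif, Tslrn1 31 and 21, and Gm6938 27 and 35. KO-only peaks stood at Xist, the RNA that silences the X chromosome, with 11 fragments, and at Gm15295, with 16. These values enter no comparison above.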
